A study of Danio rerio with 4 samples.

Results

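The regions around the zebrafish genes meis1b and meis2a were examined in methylomes made by whole-genome bisulfite sequencing, 1 library each at 2, 4, 8 and 24 hpf (hours post fertilization). Each region holds all CpGs within 100 kb on either side of the bait that was used at that gene for 4C-Seq, a method that reads out which DNA is joined to a chosen viewpoint after nuclear DNA is cut and ligated. The regions hold 4096 CpGs at meis1b and 4526 CpGs at meis2a, 8622 of the 24222160 nuclear CpGs listed. Within them, 8 low stretches were found, of 30701 in the genome. A low stretch is a run of at least 6 covered CpGs with under 25% of reads methylated at 4 hpf, each CpG being pooled with its neighbour on either side, and 5 of the 8 lie around meis1b and 3 around meis2a. All samples were whole embryos, so that a level is an average over all cell types, and no strain or genotype is given. With 1 library per stage there is no spread between embryos, and the comparisons below are between libraries.

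Meis1b and Meis2a are transcription factors of the TALE class of homeodomain proteins. Meis proteins bind DNA together with Pbx and Hox partners, and in zebrafish they are known for roles in the hindbrain, the eye and the heart. In vertebrate genomes most CpGs are methylated, and the unmethylated stretches lie mostly at promoters and at regulatory elements. Genes of developmental transcription factors often lie in unusually long unmethylated stretches.

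The baits define both regions, and the genome-specific parts of the 4C primers are printed here because they fix the loci. CpGs are in capitals, as are the bases of the DpnII site (GATC) at which the reading primer ends, of which the meis2a primer holds the first 3. The primers come from the primer table of the study.
meis1b reading primer: gCGtgatggattagcctgaGATC
meis1b second primer: caCGgCGcactaaaagcttt
meis2a reading primer: gcctaaataatttagatggtgcCGtatGAT
meis2a second primer: gctatttctgtgcactgaCGt
The meis1b bait is at position 5150650 of chromosome 13 and the meis2a bait at position 53464900 of chromosome 17. The primer table names no assembly, and the positions were taken as Zv9, the assembly of the deposited CpGs. The positions are rounded, to within 5 bp at meis1b and 50 bp at meis2a. If the DpnII site begins at the meis1b bait, the CpG of the reading primer belongs at position 5150632, and a CpG is listed at exactly this position. At meis2a the nearest listed CpG was 17 bp from where the primer places it, which is within the rounding. In the gene order of a later assembly (GRCz12tu), meis1b lies between psap and abcg2c and meis2a between spred1 and cdin1. Transcript starts were not placed on Zv9 here, so no stretch is assigned to a promoter.

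Both regions were rich in low DNA methylation. Low stretches covered 10.9% of the meis1b region and 6.45% of the meis2a region. These shares exceed those of 99.1% and 96.0% of the 6771 windows of 200 kb into which the genome was divided. The number of stretches was not unusual, since the median window of 200 kb had 4 stretches that together covered 3.37 kb. Most of the covered length came from a few long stretches, of 11.8 and 7.30 kb at meis1b and 10.7 kb at meis2a. The one of 7.30 kb holds the meis1b bait. The lengths of single stretches were not compared between windows of 200 kb. The regions of the other 4 baits of the 4C table exceeded 97.0% (barx1), 95.9% (lmx1ba), 86.5% (nfixb) and 68.8% (sox5) of the windows, so that such shares are not particular to the meis genes. The viewpoints that the study describes had been chosen as enhancers of low methylation at the same stage and limit. For these, it is the choice that places the baits in low stretches. The 4C table lists 6 baits, which is more than the viewpoints that the study describes.

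**Figure D1:**
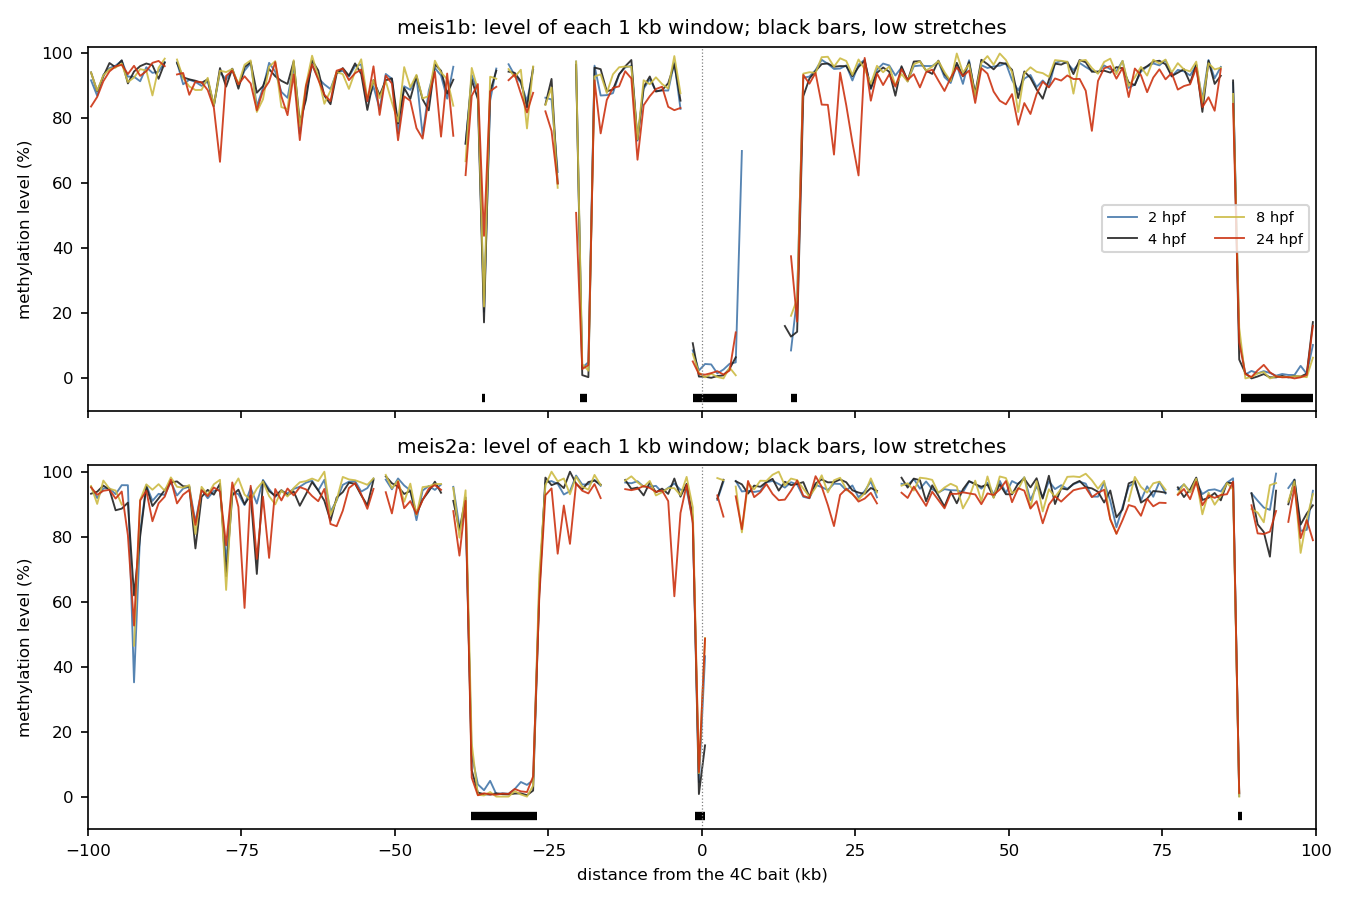
Methylation level (%) of each 1 kb window with at least 20 reads over at least 6 CpGs, against the distance from the 4C bait (kb), at meis1b (top) and meis2a (bottom), with 1 line per stage and black bars for the low stretches. Most windows sit above 75% at all stages, and the low stretches are the troughs, of which the longest are 11.8 kb at meis1b and 10.7 kb at meis2a.

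The meis1b bait lies in a low stretch of 7304 bp with 158 CpGs (chr13:5149118-5156421). Its levels at 2, 4, 8 and 24 hpf were 3.43%, 0.904%, 0.822% and 1.77%, from 4518, 3431, 1216 and 1473 reads at its CpGs. Of its CpGs with at least 5 reads, 0 at 2, 4 and 8 hpf and 1 at 24 hpf reached 25%. The stretch was thus low along its length at every stage. It is longer than 99.3% of all low stretches, but CpG-poor, with 21.6 CpGs per kb against a median of 37.6 over all low stretches. In the 500 bp to its left, 5 CpGs were at intermediate levels of 44.3%, 47.4%, 42.7% and 42.5% at 2, 4, 8 and 24 hpf. From 6 to 14 kb right of the bait, each 1 kb window had at most 31 reads in any library. None of these windows was usable at every stage. The right end of the stretch, and so its length, may thus be set by DNA that was hardly read. Low stretches in that DNA could be missed.

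The meis2a bait lies in a shorter stretch of 1640 bp with 38 CpGs (chr17:53463732-53465371). Its levels at 2, 4, 8 and 24 hpf were 3.78%, 1.25%, 4.68% and 6.35%, from 741, 722, 235 and 299 reads. The difference of 24 minus 4 hpf was 5.11 percentage points, with a 95% interval of 2.60 to 8.52. Such intervals, here and throughout, cover counting error only, and they are too narrow because a read can cross several CpGs. A single CpG at position 53464487 carried much of the methylation, with 8 of 22 reads methylated at 24 hpf and 2 of 12 at 4 hpf. When each CpG with at least 5 reads had the same weight, the mean was 4.38% at 24 hpf and 1.81% at 4 hpf. These means rest on 20 CpGs at 24 hpf and 37 at 4 hpf, so they do not cover the same CpGs. Pooled levels likewise depend on which CpGs were read, and the part of this in the difference was not tested. This stretch was also CpG-poor, with 23.2 CpGs per kb, and it was bounded on its left by methylated DNA, where 20 CpGs within 500 bp had levels of 93.4%, 97.3%, 95.9% and 87.5% at 2, 4, 8 and 24 hpf.

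The longest low stretches of both regions lay away from the baits. At meis1b, a stretch of 11759 bp with 341 CpGs (chr13:5238403-5250161) began 87.8 kb right of the bait, right meaning higher coordinates, and ended just inside the border of the region. Its levels at 2, 4, 8 and 24 hpf were 1.66%, 0.648%, 0.758% and 1.30%. At meis2a, a stretch of 10704 bp with 415 CpGs (chr17:53427247-53437950) ended 26.95 kb left of the bait, with levels of 2.45%, 0.990%, 1.17% and 1.56%. Both are longer than 99.7% of all low stretches, and neither reached 3% in any library. The meis2a stretch was called as 2 pieces at 8 hpf and 3 pieces at 24 hpf, with gaps of under 50 bp.

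The remaining stretches were shorter than those above, beside a median length of 801 bp over all low stretches of the genome. At meis1b, a stretch of 1126 bp with 45 CpGs lay 18.7 kb left of the bait (chr13:5130777-5131902), with levels of 3.59%, 0.870%, 4.40% and 3.20% at 2, 4, 8 and 24 hpf. On the other side, 14.45 kb right of the bait, a stretch of 1070 bp with 37 CpGs (chr13:5165100-5166169) had 1.79%, 0.787%, 0.844% and 0.687%. At meis2a, a stretch of 551 bp with 32 CpGs lay 87.4 kb right of the bait (chr17:53552257-53552807) and had 58.1 CpGs per kb, more than 83.6% of all low stretches. It had 0.159% at 2 hpf and 0.834% at 4 hpf. At 8 hpf, 0 of 108 reads were methylated, which allows a level of up to 2.78% by a floor of 3 reads and 3.43% by the Wilson interval, and at 24 hpf the level was 1.31%.

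The stretch with the largest change between 4 and 24 hpf was a short one farthest left at meis1b, 35.3 kb from the bait (chr13:5114753-5115324, 572 bp, 21 CpGs). Its levels at 2, 4, 8 and 24 hpf were 10.6%, 4.64%, 8.50% and 31.6%, from 584, 366, 153 and 256 reads. The difference of 24 minus 4 hpf was 27.0 percentage points (95% interval 21.0 to 33.2) and that of 24 minus 8 hpf was 23.1 points (15.4 to 30.0). This rise was larger than that of 93.4% of all low stretches with enough reads. The 4 hpf level chose the stretches, so that a rise at any other stage is favoured by the choice. The level at 24 hpf also exceeded that at 2 hpf by 21.0 points (15.0 to 27.4). The 2 hpf level was not used to choose the stretches. This stretch was singled out by its change to 24 hpf, however, which favours this difference too.

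At 24 hpf methylation of this stretch was highest in its left part, and all of its parts were above 4 hpf. The 7 CpGs on its left had 47.6% at 24 hpf and 7.48% at 4 hpf. In the middle 7 CpGs, 12 of 73 reads were methylated at 24 hpf and 2 of 133 at 4 hpf. The 7 CpGs on the right had 24.4% at 24 hpf and 5.56% at 4 hpf. The 24 hpf intervals of the right part (16.2 to 34.9) and the middle (9.66 to 26.6) overlap. The last CpG of the right part, at position 5115323, had 7 of 9 reads methylated at 24 hpf. At 24 hpf, 11 of its 21 CpGs were at or above 25%, against 2 of 21 at 4 hpf, and 9 CpGs within it (chr13:5114931-5115215) were still called as a low stretch at 24 hpf. No CpG of it passed the test of single CpGs described below.

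**Figure D2:**
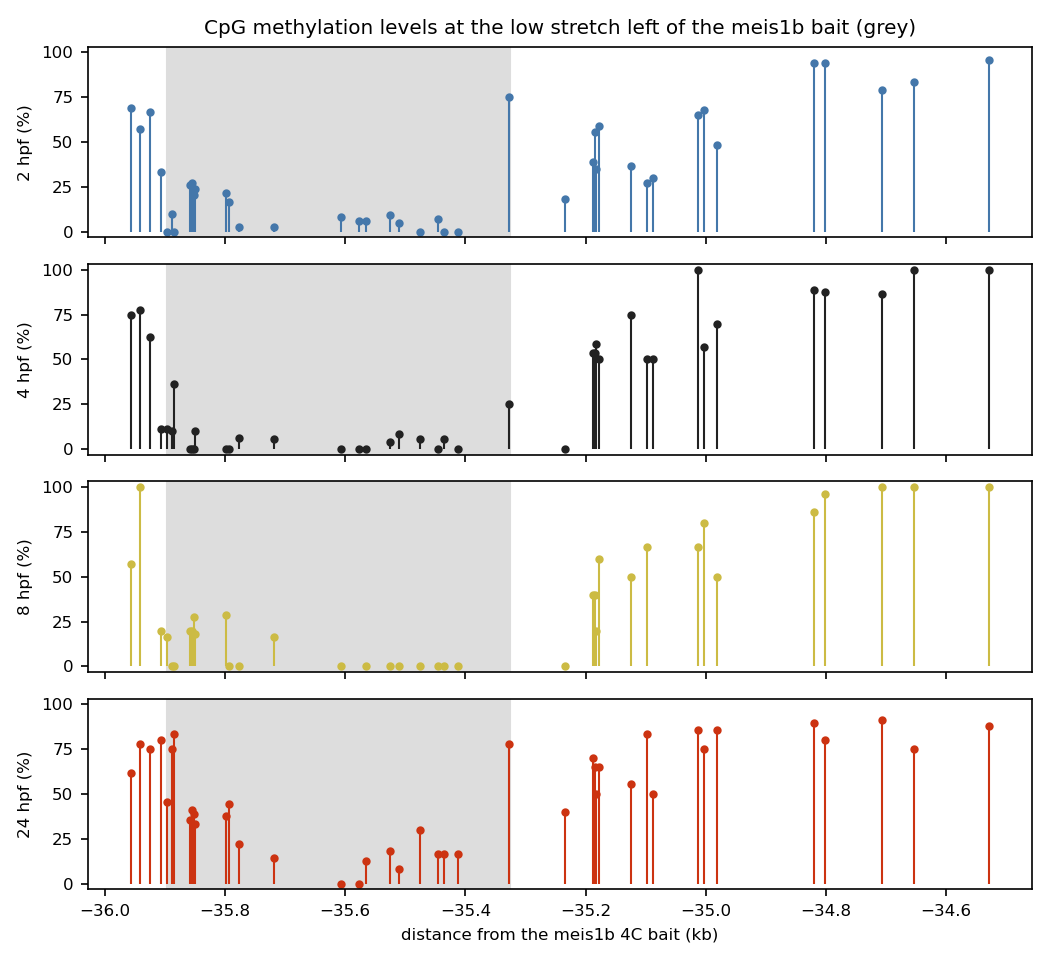
Methylation level (%) of each CpG with at least 3 reads, against the distance from the meis1b bait (kb), in and around the low stretch farthest left of that bait (grey), with 1 panel per stage. Inside the grey area 2 of 21 CpGs are at or above 25% at 4 hpf and 11 of 21 at 24 hpf, most of them in its left part.

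Except for that stretch, the low stretches stayed low. Pooled over the 5 stretches of meis1b, the levels at 2, 4, 8 and 24 hpf were 2.57%, 0.846%, 1.29% and 3.0%. Pooled over the 3 stretches of meis2a, they were 2.42%, 0.996%, 1.39% and 1.89%. All low stretches of the genome together had 2.81%, 1.86%, 3.02% and 6.46%, so that both regions were below the genome in levels pooled over reads, in which long stretches weigh most. The median low stretch of the genome had 2.09%, 1.43%, 1.61% and 2.94%, and the pooled level was above it at 2 hpf in both regions and at 24 hpf at meis1b. Of the 8 stretches, 5 were below this median at 24 hpf. The difference of 24 minus 4 hpf was 2.15 points at meis1b (1.70 to 2.66) and 0.897 points at meis2a (0.482 to 1.38), against 4.60 points in the pooled genome and a median of 1.26 points over its low stretches. Without the stretch 35.3 kb left of the bait, the difference at meis1b was 0.841 points (0.495 to 1.24).

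Between 2 and 4 hpf the pooled level of the low stretches decreased by 1.72 points at meis1b (95% interval of 4 minus 2 hpf, -2.01 to -1.44) and by 1.42 points at meis2a (-1.74 to -1.12). It was lower at 4 than at 2 hpf in 7 of the 8 stretches, all but the one 87.4 kb right of the meis2a bait. The low stretches of the genome fell as well, with a median difference of 4 minus 2 hpf of -0.598 points and a pooled one of -0.944 points. The share of them that was lower at 4 hpf by any amount was not counted, so a fall is not shown to be particular to these regions. As 4 hpf chose the stretches, a lower level at 4 hpf is again favoured. Mitochondrial CpGs, which are taken as unmethylated, had levels of 0.853%, 0.700%, 0.436% and 0.439% at 2, 4, 8 and 24 hpf, and their part in the difference was not tested.

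By size, few of the 8 stretches changed. A difference of at least 5 points was reached between 2 and 4 hpf by 1 of 8 downward (the stretch 35.3 kb left of meis1b; 13.6% of all low stretches) and 0 of 8 upward (2.11%). Between 4 and 8 hpf, 0 of 8 were higher (12.3%) and 0 of 8 lower (4.46%). Between 8 and 24 hpf, 1 of 8 was higher, again that stretch (20.6%), and 0 of 8 lower (4.86%). Between 4 and 24 hpf, 2 of 8 were higher, that stretch and the one at the meis2a bait (26.3%), and 0 of 8 lower (2.85%). With 8 members, such small counts cannot be set apart from the shares in the genome.

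**Figure D3:**
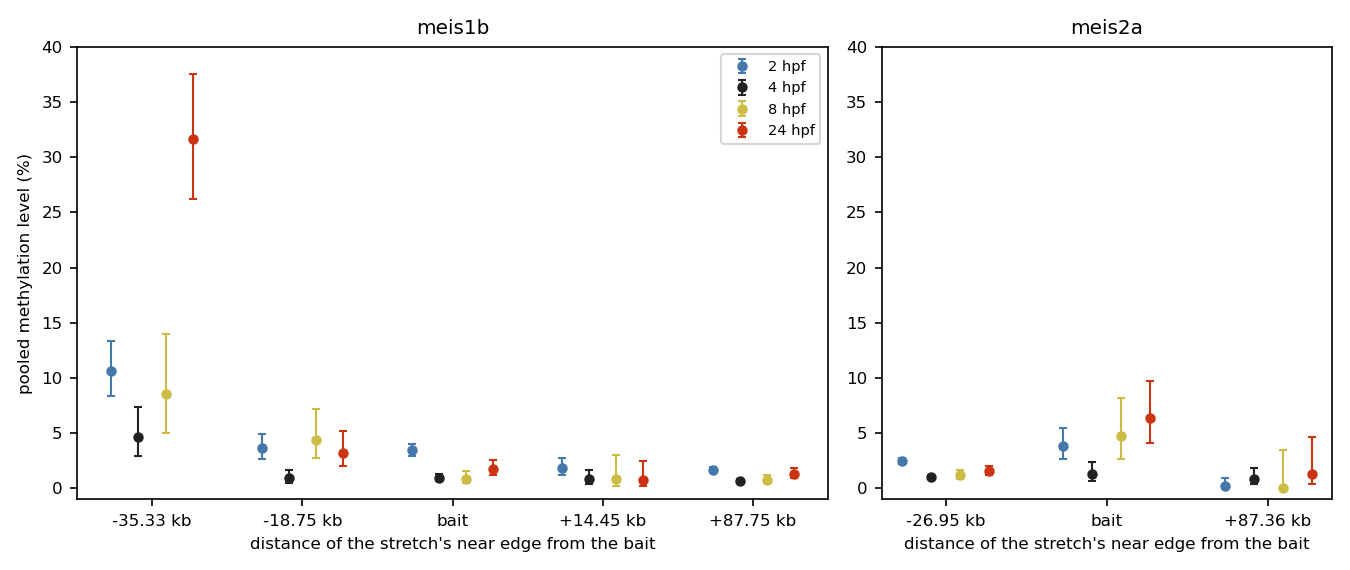
Pooled methylation level (%) of each of the 8 low stretches at 2, 4, 8 and 24 hpf, with Wilson 95% intervals as bars, ordered by distance from the bait. The stretch 35.3 kb left of the meis1b bait stands at 31.6% at 24 hpf, and all other values are at or below 10.6%.

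**Figure D4:**
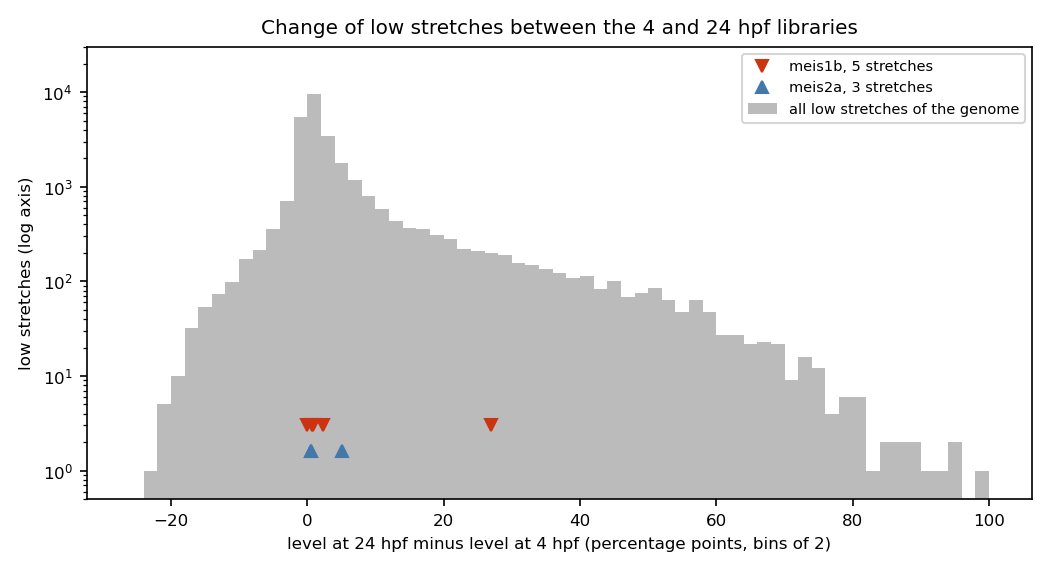
Distribution of the change between 4 and 24 hpf (percentage points, bins of 2) over the low stretches of the genome with at least 20 reads at both stages, as grey bars on a log axis, with the 5 stretches of meis1b and the 3 of meis2a as triangles. Of the 8 triangles, 7 lie between -0.10 and 5.11 points and 1 lies at 27.0.

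Outside the low stretches both regions were highly methylated, and here the 24 hpf library stood apart. The level outside low stretches at 2, 4, 8 and 24 hpf was 92.5%, 92.7%, 92.5% and 88.8% at meis1b. At meis2a it was 94.0%, 93.3%, 93.9% and 91.1%. The genome outside low stretches had 91.3%, 91.3%, 91.2% and 88.5%, so that a lower level at 24 hpf was a feature of the whole library. The number of meis1b windows of 1 kb at intermediate levels, from 25% to 75%, was 6, 3, 3 and 15 at 2, 4, 8 and 24 hpf, of 184 or 185 usable windows. At meis2a it was 4, 5, 5 and 9, of 187 or 189. In the genome, 5.71%, 5.85%, 6.68% and 8.78% of windows were at such levels.

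Windows under 25% at 4 hpf made up 14.6% of the usable windows at meis1b (27 of 185) and 7.41% at meis2a (14 of 189), against 3.27% in the genome. At 24 hpf the numbers were 24 of 184 and 13 of 189, against 2.72% in the genome. Each region is centred on a bait inside a low stretch, and viewpoints were chosen by this limit at 4 hpf, which favours these shares. Shares without the stretch at the bait were not counted.

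Windows were then compared between libraries by a difference of at least 10 points. Between 4 and 24 hpf, 32 of 373 windows of both regions were lower at 24 hpf (7.53% of all windows in the genome) and 4 were higher (2.81%). Between 8 and 24 hpf, 34 of 371 were lower at 24 hpf (7.5%) and 5 were higher (2.25%). Between 4 and 8 hpf, 5 of 371 were higher at 8 hpf (3.62%) and 3 were lower (3.45%). Between 2 and 4 hpf, 2 of 373 were higher at 4 hpf (1.42%) and 4 were lower (2.32%). The total of lower windows at 24 hpf over both regions, from pooled reads, is thus close to the share in the genome. Between 4 and 24 hpf the lower windows were 21 of 184 at meis1b (11.4%) and 11 of 189 at meis2a (5.82%). The size and place of these windows are described next.

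Of the 32 windows lower at 24 than at 4 hpf, 0 were among the 42 that overlapped a low stretch. In the genome 5.98% of such windows were lower. A window under 10% at 4 hpf cannot fall by 10 points, which limits this count. At meis1b, 14 of the 54 windows outside but within 10 kb of a low stretch were among the 32, 25.9%. Farther away it was 7 of 104, 6.73%. At meis2a the numbers were 5 of 55 and 6 of 118. In the genome the shares were 7.65% within 10 kb and 7.60% farther away. The limit of 10 kb was chosen after the values were seen, and neighbouring windows are not independent. At meis1b, 6 of these windows lay between 19 and 26 kb right of the bait.

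The lowest of these windows stood far from the other libraries. The window from 21 to 20 kb left of the meis1b bait, with 11 CpGs, had 97.5%, 96.5%, 97.6% and 51.0% at 2, 4, 8 and 24 hpf. The window beginning 25 kb right of the bait, with 22 CpGs, had 96.6%, 95.9%, 98.2% and 62.5%. In each, the libraries of 2, 4 and 8 hpf lay close together and 24 hpf stood alone. The window left of the bait ends at position 5130649, and the low stretch 18.7 kb left of the bait begins at position 5130777.

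At meis2a the lowest of these windows were those beginning 5 kb left of the bait and 75 kb left of it. The first had 96.4%, 97.9%, 94.9% and 61.7% at 2, 4, 8 and 24 hpf, from 466, 523, 79 and 133 reads. The second had 89.7%, 90.0%, 93.0% and 58.1%, from 62 reads at 24 hpf. By 25 points or more, 6 of 373 windows of both regions were lower at 24 than at 4 hpf, against 0.414% in the genome, and 2 were higher, against 0.586%.

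**Figure D5:**
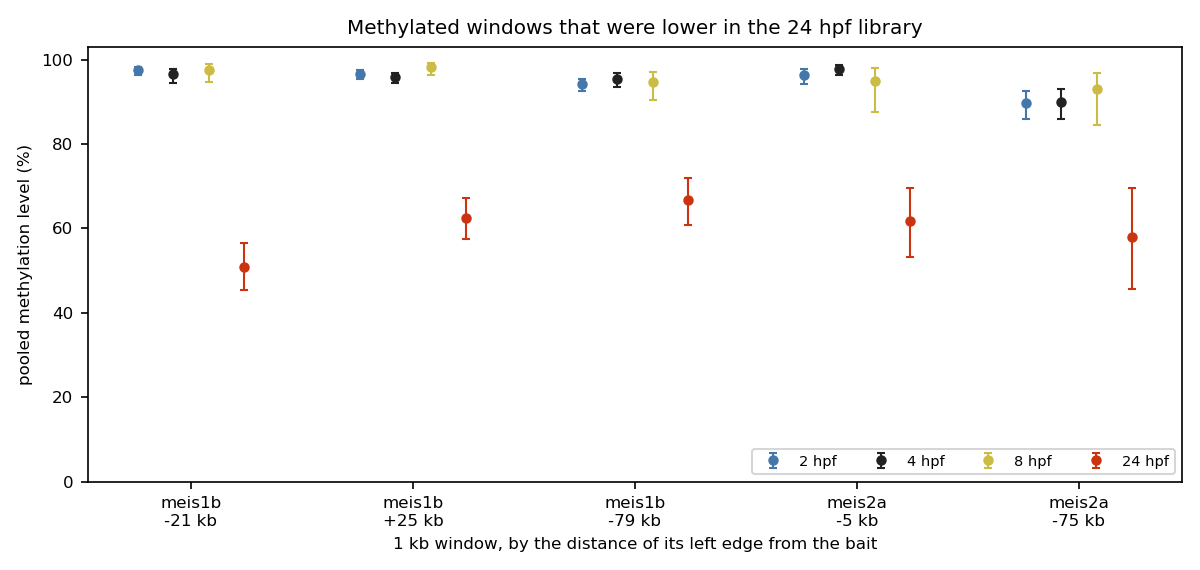
Pooled methylation level (%) of 5 windows of 1 kb outside low stretches at 2, 4, 8 and 24 hpf, with Wilson 95% intervals, named by the distance of the left edge from the bait. In each window the libraries of 2, 4 and 8 hpf are between 89.7% and 98.2%, and that of 24 hpf is between 51.0% and 66.7%.

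Single CpGs were compared between pairs of libraries with a two-sided Fisher's exact test on methylated and unmethylated reads, for CpGs with at least 5 reads in both, and p-values were adjusted (Benjamini-Hochberg) over all CpGs tested in the genome. Such a test compares the reads of a pair of libraries and not the stages. Between 4 and 24 hpf, 19 of 7252 CpGs of both regions were lower at 24 hpf, 0.262%, against 0.0589% in the genome, and 1 was higher (0.0292%). Of the 19, 16 were at meis1b, of 3468 tested (0.461%), and 3 at meis2a, of 3784 (0.0793%). CpGs that lie close together can share reads, so these counts are not of independent CpGs. The mean coverage of the regions was above that of the genome, at 14.8 and 15.3 reads for meis1b and meis2a against 12.3 at 24 hpf, and 26.4 and 25.7 against 20.9 at 4 hpf, and its part in the count was not tested. With all libraries thinned to the depth of 8 hpf, 0 of 5606 CpGs of the regions passed as lower at 24 than at 4 hpf, against 0.00222% in the genome.

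Between 8 and 24 hpf, 11 of 6002 CpGs were lower at 24 hpf (0.0233% in the genome), all at meis1b, and 0 were higher (0.0141%), with 83 and 22 at an unadjusted p under 0.05 (1.2% and 0.667% in the genome). With thinned reads, 6 of 5479 were lower, against 0.0121% in the genome. Between 4 and 8 hpf, 0 of 6215 CpGs were higher at 8 hpf (0.00285%) and 0 lower (0.00328%), with 30 and 36 at an unadjusted p under 0.05 (0.626% and 1.01% in the genome). Between 2 and 4 hpf, 0 of 7943 were higher at 4 hpf (0.00234%) and 1 lower (0.00372%), with 61 and 139 at an unadjusted p under 0.05 (1.03% and 1.59% in the genome). No CpG inside a low stretch passed in any of the 4 pairs of libraries. This count is limited by the choice and the depth, as a CpG near 0% at 4 hpf can hardly pass as lower later. Rises can fail at this depth: position 5114792 had 0 of 19 reads methylated at 4 hpf and 6 of 17 at 24 hpf and did not pass. The share of CpGs inside low stretches that passed in the genome was not counted. Before adjustment, 7 of the 438 CpGs tested in meis1b stretches and 0 of the 321 in meis2a stretches were higher at 24 than at 4 hpf. All 7 lay between positions 5114761 and 5114857, in the stretch 35.3 kb left of the bait that was singled out above by its rise. They lie close enough to share reads and are not independent, so the count describes this stretch and not the meis1b stretches in general. Of all CpGs tested in the genome, inside and outside low stretches, 0.888% were.

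The CpGs that passed lay mostly in small groups. In the window 21 kb left of the meis1b bait, 6 CpGs between positions 5129786 and 5129980 were lower at 24 than at 4 hpf. The strongest was at position 5129809, with 8 of 30 reads methylated at 24 hpf and 47 of 47 at 4 hpf (adjusted p = 1.41e-08 by Fisher's exact test). The same CpG had 85 of 86 reads methylated at 2 hpf and 26 of 26 at 8 hpf. Its level was thus lower in the 24 hpf library than in each of the other 3.

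Right of the meis1b bait, 3 CpGs in the window 21 kb away and 3 CpGs in that 25 kb away passed. The strongest of these was at position 5172257, with 18 of 43 reads methylated at 24 hpf and 52 of 53 at 4 hpf (adjusted p = 2.65e-06 by Fisher's exact test). At position 5175878, 7 of 26 reads were methylated at 24 hpf, against 42 of 43 at 4 hpf (adjusted p = 3.93e-06 by Fisher's exact test). A further 2 CpGs passed in the window 63 kb right of the bait. These 4 windows are among those lower by at least 10 points.

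A few places changed at other times. At meis2a, the window beginning 93 kb left of the bait held 31 CpGs and had 35.2%, 61.9%, 46.5% and 52.6% at 2, 4, 8 and 24 hpf. That window holds no low stretch at 4 hpf, but 8 of its CpGs were called as one at 2 hpf (chr17:53372152-53372230, 16.3%). At 8 hpf another run of 8 CpGs was called (chr17:53372222-53372276), from only 14 reads. The runs overlap only at their ends. The window beginning 73 kb left of the bait, with 23 CpGs, had 90.2%, 68.5%, 94.8% and 73.2%. It was thus lower at 4 and 24 hpf than at 2 and 8 hpf. The CpG at position 53387822, left of the meis2a bait, was the CpG that was lower at 4 than at 2 hpf and higher at 24 than at 4 hpf. Its methylated reads at 2, 4, 8 and 24 hpf were 43 of 48, 16 of 43, 9 of 11 and 28 of 31.

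Rises outside low stretches were smaller than the falls. The largest between 4 and 24 hpf at meis1b were 6.54 points, in the window beginning 16 kb right of the bait, and 6.13 points, in that beginning 42 kb left of it. At meis2a they were 11.1 points 92 kb left of the bait and 9.45 points 78 kb left of it. Over the 6 CpGs of the window 92 kb left of the bait covered by at least 3 reads at every stage, weighted equally, the 11.1 points became -0.87. Over 8 such CpGs of the meis1b window 16 kb right of the bait, the 6.54 points became -0.34. The remaining named rises were kept. Over 9 such CpGs of the meis1b window 42 kb left of the bait, the 6.13 points became 5.14. Over 19 such CpGs of the meis2a window 78 kb left of the bait, the 9.45 points became 8.19.

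At the edges of low stretches the level of a window also depends on which CpGs were read. The window that begins at the meis2a bait had 48.6% at 24 hpf and 15.8% at 4 hpf from pooled reads. Over its 17 CpGs covered by at least 3 reads at every stage, the means were 34.8% and 34.1%. The window beginning 14 kb right of the meis1b bait had 37.6% at 24 hpf and 12.9% at 4 hpf, and means of 27.6% and 16.7% over 24 such CpGs. Both are among the 4 windows counted as higher at 24 hpf.

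Outside the limits of a low stretch, 3 runs of CpGs were found with looser limits, of fewer CpGs or of up to 50%. At meis1b, a run of 5 CpGs 13.5 kb right of the bait had 0 of 20 reads methylated at 4 hpf, and a run of 3 CpGs 14.1 kb right of it had 0 of 6, and neither had reads enough to be compared at other stages. The first run has 6 CpGs and 0 of 24 reads methylated if its last CpG is counted, which is left out because pooling with its neighbour takes it over 25%, and calling each CpG alone gave 6 stretches at meis1b. At meis2a, 10 CpGs in the window 73 kb left of the bait (chr17:53392683-53392724) had 81.9%, 36.8%, 100% and 54.7% at 2, 4, 8 and 24 hpf. No low stretch of the regions lay close to the limit of 25% at 4 hpf. The highest was the stretch 35.3 kb left of meis1b, at 4.64%.

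The coverage of low stretches differed between the libraries. The ratio of mean coverage inside to outside low stretches at 2, 4, 8 and 24 hpf was 0.789, 0.836, 0.762 and 0.571 at meis1b. At meis2a it was 0.823, 1.01, 0.749 and 0.541. In the genome it was 0.831, 1.07, 0.688 and 0.580. Its part in the levels was not tested.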

How the data were processed

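The authors extracted DNA from timed embryos, mapped bisulfite reads to Zv9 (danRer7) and deposited, for each CpG, the fraction of methylated reads and the coverage. No aligner or caller is named for these libraries. The fraction times the coverage gave the methylated reads. Mean coverage was 28.6, 20.9, 8.04 and 12.3 reads at 2, 4, 8 and 24 hpf. Low stretches were runs in which the level pooled over each covered CpG and its 2 neighbours was under 25% at 4 hpf, broken by gaps over 1 kb, with at least 6 CpGs. Levels are summed methylated reads over summed reads. Windows of 1 kb needed at least 20 reads and 6 covered CpGs, and stretches at least 20 reads. Intervals are Wilson 95% and, for differences, Newcombe. Methods were tested on simulated data. The members, lists and limits were chosen with earlier results of these data known. Stretches are all described. Windows outside stretches were named for the 2 largest rises and falls of each region between 4 and 24 hpf, and others after their values were seen. Alternatives changed the calling of stretches, weighting, limits and depth. Fisher's exact test with Benjamini-Hochberg adjustment compared single CpGs. A planned search for promoters by the spacing of their CpGs was not run, and promoter positions were not analysed here. Python 3.11.15, numpy 2.4.6, scipy 1.17.1 and numba 0.67.0 were used.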

Additional observations from a re-analysis of the deposited data

How the results depend on the processing

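Each of the 8 low stretches was overlapped again under all 9 other ways of calling that were tried over the whole of each region. Calling at 8 or 24 hpf gave 5 stretches at meis2a in place of 3, by splitting the long one and, at 8 hpf, adding a short one. The difference of 24 minus 4 hpf in the stretches of meis1b was 0.984 points in stretches called at 24 hpf, which hold less of the stretch farthest left, and 0.841 points without that stretch, an alternative chosen after seeing the data. The difference of 4 minus 2 hpf at meis2a was -1.77 points over CpGs read at least 5 times at every stage.

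With a limit of 25 points, the windows higher and lower numbered 1 and 1 for 4 against 2 hpf (0.0768% and 0.179% in the genome), 2 and 0 for 8 against 4 hpf (0.452% and 0.256%), 0 and 6 for 24 against 8 hpf (0.269% and 0.322%), and 2 and 6 for 24 against 4 hpf (0.586% and 0.414%). With thinned reads, 7 windows were lower at 4 than 2 hpf, 11 higher and 5 lower at 8 than 4 hpf, and 8 higher at 24 than 4 hpf. With CpGs weighted equally, chosen after seeing the data, 2 were lower at 4 than 2 hpf, 3 higher at 8 than 4 hpf and 2 higher at 24 than 8 hpf. Those lower at 24 hpf then numbered 49 against 8 hpf and 41 against 4 hpf. Shares in the genome were not counted with thinned reads or with equal weights, so these window counts cannot be read as more or less change than in the genome. With a limit of 10 points, and also in stretches called at 24 hpf, 0 stretches were lower at 4 than 2 hpf and 1 was higher at 24 than 4 hpf. Shares of all low stretches were not counted under either setting, so these stretch counts cannot be set beside the genome.

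With thinned reads, single CpGs lower at 24 than 4 hpf fell to 0 (0.00222% in the genome) and those lower at 24 than 8 hpf to 6 (0.0121%). Those higher at 24 than 4 hpf fell to 0 (0.00627% in the genome). Those lower at 4 than 2 hpf also fell to 0, and in the whole genome 0 of 13475439 passed. At an unadjusted p under 0.05, CpGs higher and lower numbered 61 and 139 for 4 against 2 hpf (1.03% and 1.59% in the genome), 30 and 36 for 8 against 4 hpf (0.626% and 1.01%), 22 and 83 for 24 against 8 hpf (0.667% and 1.2%), and 43 and 349 for 24 against 4 hpf (0.888% and 2.95%). Where no cause follows from the setting itself, the cause was not tested. No paired analysis was possible because each stage has 1 library. The libraries of 8 and 24 hpf had the fewest reads, so that short stretches and single CpGs are least certain there.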
